A study of Homo sapiens with 6 samples.

Results

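The C/D box small nucleolar RNAs (snoRNAs) are short nuclear RNAs whose gene symbols begin with SNORD. They were taken as every probe set that the platform annotation gives exactly 1 symbol of the form SNORD plus a number and at most 1 letter. The imprinted repeat families SNORD113 to SNORD116 and pseudogenes were left out. This gave 124 probe sets of 83 genes, out of 33578 genes with a probe set of their own, and the brightest probe set stood for each gene. The rule itself reads names and mean signal.

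Most C/D box snoRNAs lie in introns of other genes and are trimmed out of the spliced intron. The sequence next to their D box base-pairs with ribosomal RNA (rRNA) or with the U6 spliceosomal RNA, and the methylase fibrillarin (FBL), carried with NOP56, NOP58 and SNU13, then adds a methyl group to the 2′ oxygen of the paired nucleotide. A few, such as U3 (the SNORD3 genes) and U14 (SNORD14), are needed to cut the precursor of rRNA. Growing tumour cells make ribosomes at a high rate.

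The study measured total RNA of KPL4, an established human inflammatory breast cancer line, on 6 Affymetrix arrays. In 3 of them the cells had lost ESR2, the gene of estrogen receptor beta (ERβ), by CRISPR knockout according to the series, and 3 came from control KPL4 cells. Both groups grew in the same serum-containing medium with insulin and hydrocortisone, and the labels list no treatment. The labels call the replicates biological. They leave unsaid whether these were separate cultures, whether the knockout cells were 1 clone or a pool, and what the control cells had received, so p-values measure only the spread between these arrays, which may be technical.

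Values are log2 signals as the authors deposited them, and a difference is the knockout mean minus the control mean on that scale. A gene is called changed where limma's Benjamini-Hochberg adjusted p over all 33578 genes was under 0.05, and bright where its mean over the 6 arrays was above 5.05, the median of all genes. The median signal over all probe sets lay between 4.08 and 4.09 on the knockout arrays and between 4.09 and 4.11 on the control arrays. The epithelial markers EPCAM, CDH1, KRT8, KRT18 and KRT19 and the HER2 amplicon genes ERBB2 and GRB7 were bright in both groups. CDH1 had a mean of 7.81 over the 6 arrays, below the fibroblast marker COL1A1 (7.87). The others ran from 13.9 (ERBB2) to 17.5 (EPCAM). KRT19 rose by 1.25 (adjusted p = 0.00010), and KRT8 (-0.24, adjusted p = 0.31) and KRT18 (-0.27, adjusted p = 0.27) missed the threshold with all knockout arrays below the control arrays. Of 7 measured markers of leukocytes, fibroblasts and endothelium, 0 were called by limma, and their means over the 6 arrays ran from 3.97 (CDH5) to 7.87 (COL1A1). Among them COL1A1, COL1A2, VWF and PTPRC were bright too. ESR2 itself was dim, at 3.90, 4.08 and 4.01 on knockout arrays 1, 2 and 3 and at 3.99, 3.69 and 4.16 on control arrays 1, 2 and 3. Its groups overlapped (difference 0.05, adjusted p = 0.90), so this probe set does not check the genotype.

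A symbol did not always match the place of its probe set. For 59 of the 83 genes the probe set lay at the gene in RefSeq, either by its listed gene ID (55) or by the probe sets next to it on the array's numbering (4). For the other 24 the probe set was not placed at the gene. Of these, 22 lay on another chromosome, 1 elsewhere on the same chromosome, and 1 (SNORD39) had no place in RefSeq. Their signal cannot be ascribed to the named gene, and which RNA they read was not tested. The sets are kept apart throughout, and the 59 at their gene are called the placed snoRNAs.

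The placed snoRNAs were lower in the knockout cells. Of the 59, 18 fell and 0 rose, against 3.21% of all genes called lower and 4.81% called higher (8.01% in either direction). Only 1 of the 59 had both a positive difference and an unadjusted p under 0.05, against 30 with a negative one. Their median difference was -0.33 against 0.02 for all genes, 49 differences were negative and 10 positive, and they ran from -1.85 to 0.44. On 25 of the 59 all 3 knockout arrays lay below all 3 control arrays, which 10.3% of all genes did, and on 0 of them all lay above, which 14.9% of all genes did. The other 24 genes had a median of 0.03, with 2 lower and 0 higher. They were also dimmer: 7 of the 24 had a bright probe set, against 47 of the 59. Over all 83 genes, 20 fell and the median was -0.27.

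**Figure D1:**
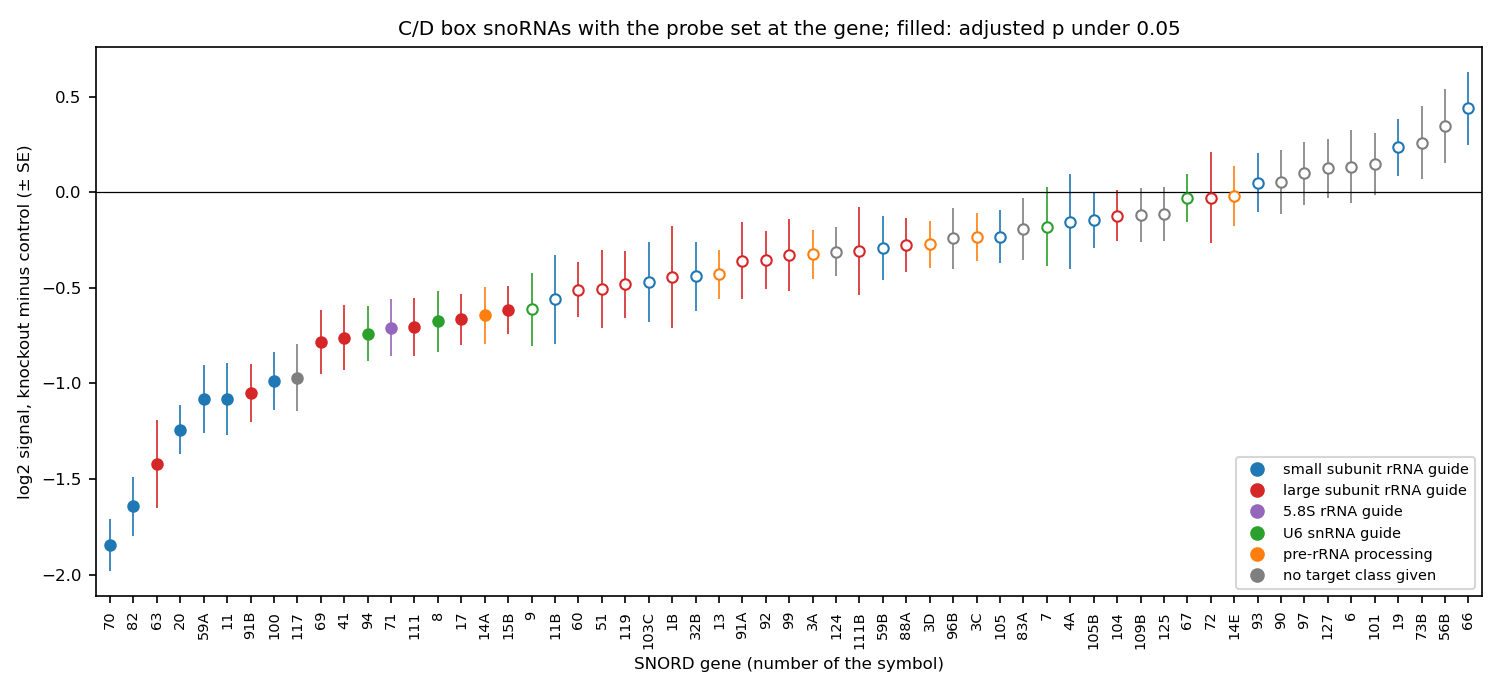
Difference of each of the 59 placed C/D box snoRNAs between knockout and control cells (log2, vertical axis, bars are the standard error of the fit). The snoRNAs are sorted by difference and coloured by target class. The points run from -1.85 (SNORD70) to 0.44 (SNORD66), and all 18 called snoRNAs lie below 0.

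Calls followed brightness. None of the 12 dim placed snoRNAs was called at an adjusted p under 0.05, and their median was -0.12; 3 of them had an unadjusted p under 0.05. All 18 calls were among the 47 bright ones, whose median was -0.44, against 5.93% of bright genes called lower, 8.9% called higher and a median of 0.06 for bright genes. The knockout arrays all lay below the control arrays for 24 of these 47, as for 14.7% of bright genes. By signal, 2 of 18 fell between 5.05 and 7, where 2.29% of all genes did, 6 of 10 between 7 and 9, where 7.48% did, and 10 of 19 above 9, where 8.69% did. The last 3 classes had medians of -0.33, -0.84 and -0.62.

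Among the 16 placed guides of small subunit rRNA methylation 6 fell, and the median was -0.45. The class holds SNORD70 and SNORD82, which had the largest falls of all members. SNORD70, which guides a site in 18S rRNA and lies on chromosome 2 in the gene NOP58, read 6.58, 6.47 and 6.60 on knockout arrays 1, 2 and 3 and 8.56, 8.19 and 8.43 on control arrays 1, 2 and 3. All knockout arrays were lower by more than the spread within either group, and the mean difference was -1.85 ± 0.14 (SE, n = 3 each, adjusted p = 1.2e-05), or 3.60-fold lower in knockout cells. SNORD82, also called U82, lies in the nucleolin gene NCL and read 12.37, 12.15 and 12.36 on the knockout arrays against 13.84, 14.23 and 13.73 on the control arrays. The groups were far apart again, by -1.64 ± 0.15 (adjusted p = 7.1e-05, 3.12-fold lower). SNORD20, another guide from NCL, read 7.35, 7.40 and 7.36 in knockout cells and 8.74, 8.67 and 8.44 in control cells. Its knockout arrays were close together (SD 0.03), and it fell by 1.24 ± 0.13 (adjusted p = 0.00014).

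SNORD59A, carried by the ATP synthase gene ATP5F1B on chromosome 12, read 10.69, 9.96 and 10.46 in knockout cells and 11.55, 11.36 and 11.44 in control cells. Knockout array 2 was the lowest of the 6, and the groups did not overlap (-1.08, adjusted p = 0.0033). SNORD11, a neighbour of SNORD70 in NOP58, read 7.09, 7.27 and 7.55 in knockout cells and 8.76, 8.07 and 8.32 in control cells. It too fell without overlap (-1.08, adjusted p = 0.0044). The call ended where a gene's probe sets, some of them elsewhere, were averaged (-0.66, adjusted p = 0.079). SNORD100, from the ribosomal protein gene RPS12 on chromosome 6, read 8.89, 9.06 and 8.75 in knockout cells and 10.10, 9.92 and 9.65 in control cells. Its fall was 1.98-fold (-0.99, adjusted p = 0.0021). Outside the calls, SNORD66 had the largest positive difference of all placed snoRNAs, 0.44 (adjusted p = 0.22), at a dim signal and with overlapping groups.

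**Figure D2:**
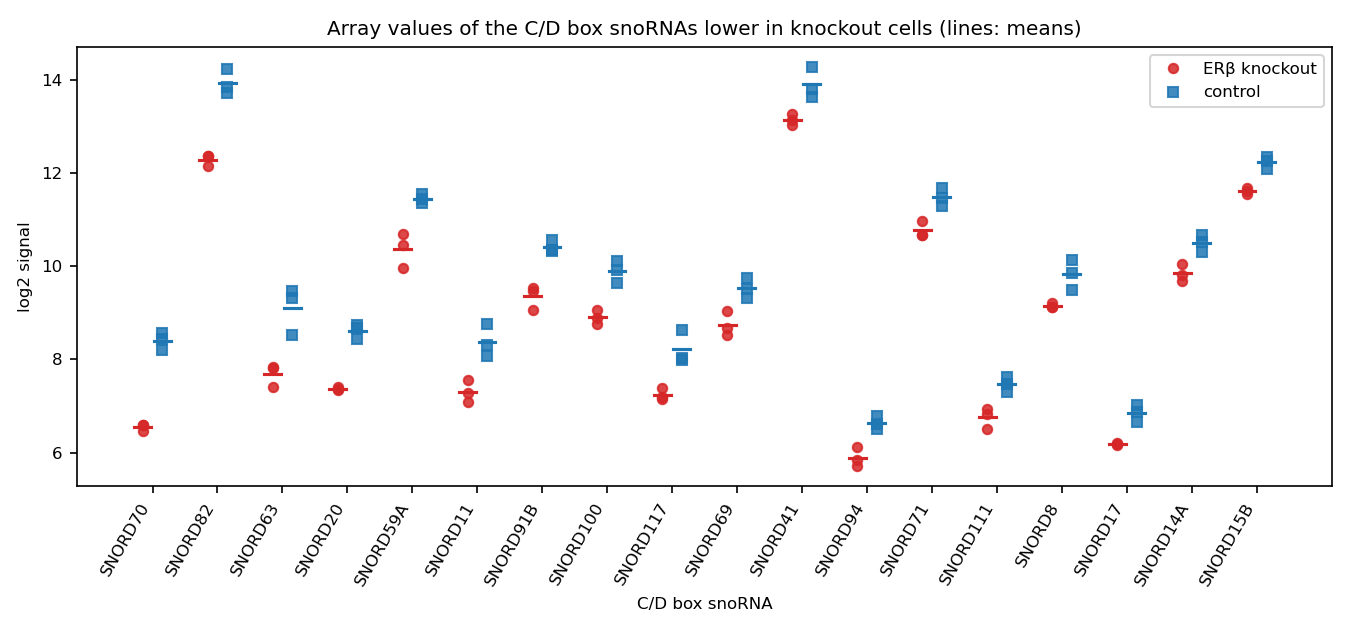
Log2 signal of called C/D box snoRNAs on each array (vertical axis), knockout arrays as red circles left of the control arrays as blue squares. For each snoRNA shown, the 3 knockout arrays lie below the 3 control arrays; SNORD82 and SNORD41 are the brightest, at a mean of 13.1 and 13.5.

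All 18 placed guides of large subunit rRNA methylation had a negative difference, and 7 of them fell, with a median of -0.49. SNORD63, in an intron of the mitochondrial chaperone gene HSPA9 on chromosome 5, read 7.81, 7.84 and 7.40 in knockout cells and 9.47, 9.32 and 8.53 in control cells. Array 3 was the lowest of its group on both sides, and the gap between the groups held (-1.42 ± 0.23, adjusted p = 0.0028, 2.68-fold lower). A dimmer probe set with the same symbol had no listed gene ID and was placed at HSPA9 by its neighbours. It differed by -0.28 (adjusted p = 0.41 over probe sets with 1 symbol), and whether it reads the same snoRNA was not tested. Averaged over all probe sets with the symbol SNORD63, the difference was -0.42 and the call was lost (adjusted p = 0.061). SNORD91B, in the ribosome assembly gene TSR1 on chromosome 17, read 9.52, 9.07 and 9.48 in knockout cells and 10.56, 10.34 and 10.32 in control cells. It fell 2.07-fold (-1.05, adjusted p = 0.0014), with all knockout arrays below the control arrays.

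The other 5 called guides of this class fell by smaller amounts. They were SNORD69 (-0.78, adjusted p = 0.015), SNORD41 (-0.76, adjusted p = 0.019), SNORD111 (-0.70, adjusted p = 0.015), SNORD17 (-0.66, adjusted p = 0.010) and SNORD15B (-0.62, adjusted p = 0.012). SNORD41, the brightest of them, read 13.27, 13.03 and 13.14 in knockout cells and 13.81, 14.28 and 13.63 in control cells. SNORD17 was the most even in knockout cells, at 6.19, 6.15 and 6.18, against 7.01, 6.65 and 6.86 in control cells. The knockout and control arrays of all 5 did not overlap. SNORD41 (-0.38, adjusted p = 0.12) and SNORD111 (-0.37, adjusted p = 0.12) lost their calls where probe sets were averaged. SNORD60 came closest to the threshold without passing it (-0.51, adjusted p = 0.056). SNORD71, the only placed member assigned to 5.8S rRNA, read 10.68, 10.66 and 10.98 in knockout cells and 11.30, 11.69 and 11.46 in control cells, and fell by 0.71 (adjusted p = 0.013).

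Among the 5 placed guides of U6, the spliceosomal RNA, 2 fell and all 5 differences were negative, with a median of -0.61. SNORD94 read 5.72, 5.85 and 6.11 in knockout cells and 6.78, 6.50 and 6.62 in control cells (-0.74, adjusted p = 0.0087). SNORD8 read 9.12, 9.12 and 9.21 in knockout cells and 9.85, 10.13 and 9.50 in control cells (-0.68, adjusted p = 0.026). Both gave separate groups, with the wider spread of SNORD8 in control cells. SNORD9, which lies beside SNORD8 in the chromatin remodeller gene CHD8, had a difference of -0.61 (adjusted p = 0.080). The U6 RNA these guides act on was measured through RNU6-1, 1 of several near-identical copies, and rose by 0.63 (adjusted p = 0.020), at 14.57, 14.68 and 14.76 in knockout cells and 14.29, 13.91 and 13.91 in control cells. This call was lost without knockout array 2 or 3 or control array 2 or 3 (adjusted p between 0.064 and 0.078).

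Of the snoRNAs that act in pre-rRNA processing, SNORD13 and the U3 genes had the highest signals of all members. SNORD13, an independently transcribed RNA that binds 18S precursors and the brightest of all members, read 17.95, 17.73 and 17.92 in knockout cells and 18.34, 18.18 and 18.36 in control cells. SNORD3A, a gene of U3, read 16.92, 16.83 and 16.83 in knockout cells and 17.19, 17.32 and 17.05 in control cells. For SNORD13, SNORD3A, SNORD3C and SNORD3D alike the knockout arrays all lay below the control arrays, yet none passed the test as fitted here. Their differences were -0.43 (adjusted p = 0.071), -0.33 (0.17), -0.24 (0.34) and -0.27 (0.24). The U3 genes are near-identical copies, so their probe sets may read the same RNA, and at signals above 16 the deposited scale exceeds what a 16-bit scanner gives in plain log2, so the size of these differences is uncertain. SNORD13 was called lower after repeated quantile normalization (adjusted p = 0.036), with a trended robust prior (0.00094) and with bright genes alone (0.029), and SNORD3A (0.0099) and SNORD3D (0.018) with that prior. SNORD14A, a U14 copy in the ribosomal protein gene RPS13, fell by 0.64 (adjusted p = 0.020), at 9.69, 9.82 and 10.06 in knockout cells and 10.67, 10.52 and 10.32 in control cells. The much dimmer copy SNORD14E differed by -0.02 (adjusted p = 0.97). Over the 6 placed snoRNAs of this class, 1 fell and the median was -0.30.

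For 13 placed snoRNAs no target class was given here, and they did not share the direction: 1 fell, 6 differences were negative and 7 positive, and the median was 0.05. Of these 13, 5 were bright. The 1 that fell was SNORD117, in the RNA helicase gene DDX39B on chromosome 6. It read 7.19, 7.16 and 7.38 in knockout cells and 8.62, 7.99 and 8.03 in control cells (-0.97, adjusted p = 0.0056), with control array 1 well above the other control arrays. SNORD56B had the largest positive difference of the class, 0.35 (adjusted p = 0.36), and was dim.

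Because an intronic snoRNA is made from its host's transcript, each placed snoRNA was set beside the gene that carries it. A host could be named for 53 of the 59, giving 43 host genes, of which 23 had a probe set of their own. None of the 23 hosts passed limma's test at an adjusted p of 0.05, and 2 had an unadjusted p under 0.05. Their differences ran from -0.35 to 0.40 with a median of 0.03. The means of ATP5F1B (17.3), NCL (16.8), RPS12 (16.6), HSPA9 (16.2) and RPL37 (16.1) lay above 16. There the size of a difference on the deposited scale is uncertain, also when it is set against that of a snoRNA. In 25 of 31 pairs of a snoRNA and its host the snoRNA's difference was the lower of the pair, and the median of snoRNA minus host was -0.54. On each array the host's signal was then subtracted from the snoRNA's. In 16 of the 31 pairs these values were lower on all knockout arrays than on all control arrays, and in 0 pairs higher. Of the 16, 13 are pairs of a snoRNA called lower. Single genes did so in 10.3% of all genes, and the share over other gene pairs was not computed. An exact permutation test of 3 against 3 arrays cannot go below p = 0.1, two-sided, so a single pair cannot pass 0.05.

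For the 14 called snoRNAs with a measured host, from 12 hosts, the median difference was -1.02 for the snoRNAs and -0.10 for the hosts counted per pair. These snoRNAs were picked because they fell, so the gap is a description and no test. SNORD70 fell by 1.85 while NOP58, itself a core C/D protein, differed by -0.10 (adjusted p = 0.72). SNORD82 and SNORD20 fell by 1.64 and 1.24 while NCL differed by -0.25 (adjusted p = 0.34). NCL was the only 1 of the 12 hosts whose knockout arrays all lay below the control arrays. SNORD63 fell by 1.42 while HSPA9 differed by -0.12 (adjusted p = 0.68). SNORD41 and SNORD71 fell while their hosts TNPO2, a nuclear import receptor, and AP1G1, a clathrin adaptor subunit, had positive differences of 0.13 and 0.19 (adjusted p = 0.76 and 0.51). The hosts DDX39B, GNL3, RPS13 and RPS3 had no probe set of their own and were not analysed here. A probe within a snoRNA also reads unspliced host RNA, and how much of each signal that makes up was not tested.

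**Figure D3:**
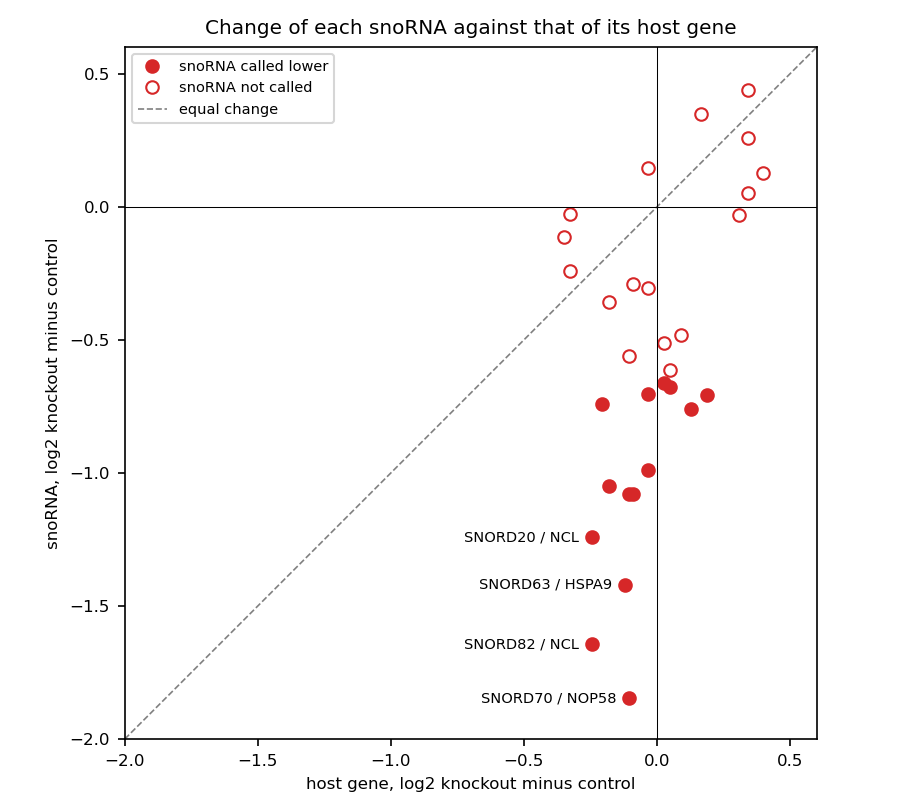
Difference of each placed snoRNA (vertical axis, log2 knockout minus control) against that of its host gene (horizontal axis, same scale) for 31 pairs; the line marks equal differences. The hosts stay between -0.35 and 0.40 while the snoRNAs reach -1.85, and 25 points lie below the line.

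Across the 31 pairs, Pearson's r between the differences was 0.48 and Spearman's rho 0.44. These describe pairs that come from the same 6 arrays and in part share a host, and carry no test.

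SnoRNAs of the same host had unequal differences. Of 9 hosts that held several placed snoRNAs, 8 held at least 1 that fell, and in 1 of these, NCL, all fell. RPS12 holds SNORD100, which fell by 0.99, and SNORD101, which read 7.43, 7.10 and 7.40 in knockout cells and 7.47, 6.97 and 7.05 in control cells. SNORD101 overlapped between the groups (0.15, adjusted p = 0.71). GNL3, the nucleostemin gene, holds SNORD69, which fell by 0.78, and SNORD19, which differed by 0.23 (adjusted p = 0.45). This SNORD19 probe set was placed by its neighbours. A dimmer one with the listed gene ID differed by 0.07 (limma adjusted p = 0.90 over probe sets with 1 symbol). ATP5F1B holds SNORD59A (-1.08) and SNORD59B (-0.29, adjusted p = 0.38), and TSR1 holds SNORD91B (-1.05) and SNORD91A (-0.36, adjusted p = 0.37). NOP58 holds SNORD70, SNORD11 and SNORD11B, of which 2 fell. SNORD11B had a difference of -0.56 (adjusted p = 0.20, and 0.037 with the replicate number as a block). In each host with both called and uncalled snoRNAs, the uncalled ones had the lower mean signal over the 6 arrays. Such means were 9.40 for SNORD100 and 7.24 for SNORD101, and 9.14 for SNORD69 and 6.73 for SNORD19. They were 10.9 and 7.47 for SNORD59A and SNORD59B, and 9.88 and 5.34 for SNORD91B and SNORD91A. The part of brightness in these contrasts was not tested. In 7 of the 11 pairs within a host, the difference between both snoRNAs per array separated the groups (each p = 0.1, exact permutation, the smallest possible). The share over other gene pairs was not computed here either. SNORD8 and SNORD9 in CHD8 (p = 0.9) and SNORD105 and SNORD105B in PPAN (p = 0.4) were among the pairs whose difference overlapped between the groups (exact permutation).

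**Figure D4:**
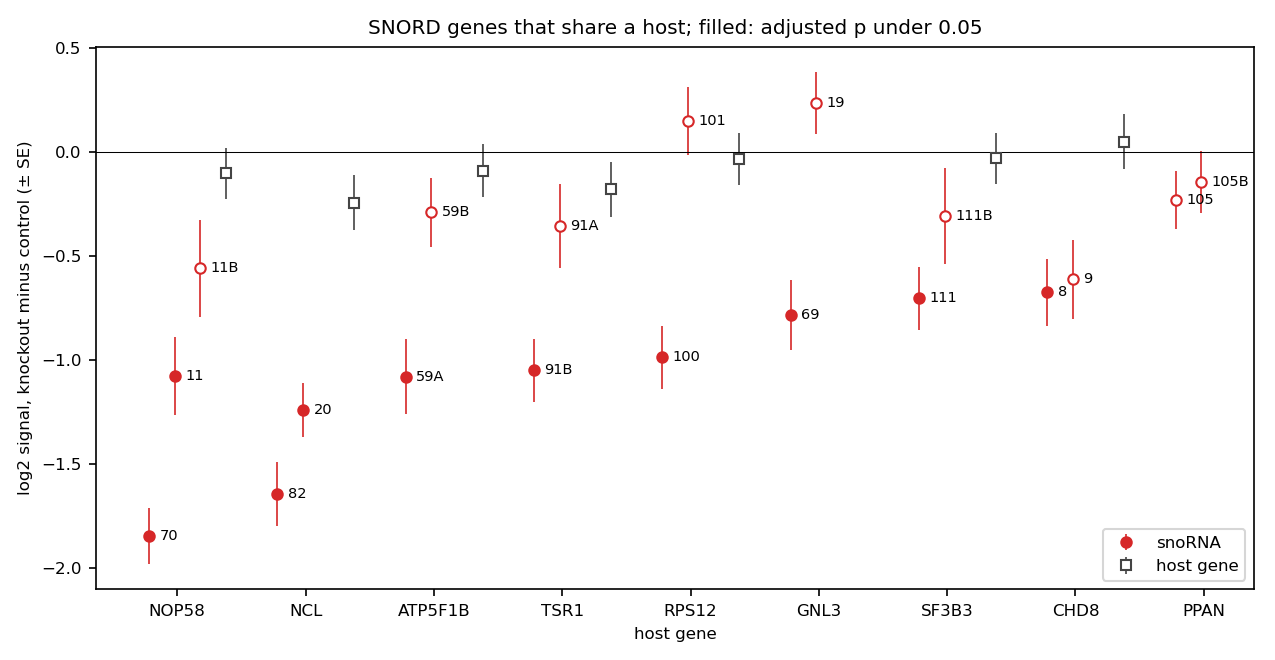
Difference of each placed snoRNA (log2 knockout minus control, bars are the standard error of the fit) for the 9 hosts that hold several of them. In RPS12 and GNL3 the members lie on both sides of 0, and in NCL both fell.

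Many snoRNA host genes begin transcription in a run of C and T, the start that marks genes whose RNA is translated in step with growth signals. A window of 30 bases, 15 on each side of the annotated start, was available for 35 of the 43 hosts in RefSeq (GRCh38.p14). A run of at least 5 letters C or T that covers the start stood in 11 of these windows (31.4%), against 9.80% of 27305 windows of all genes. It stood in 4 of 13 hosts that hold a snoRNA that fell and in 7 of 22 that do not. The shares were thus close to each other. The windows below show hosts of snoRNAs that fell, 4 with such a run and 3 without, so that the difference at the start can be seen; capitals mark the run, and each reads 5′ to 3′ along the gene. They lie at chr6:132814554-132814583 (RPS12, plus strand), chr11:17077653-17077682 (RPS13, minus), chr11:75399503-75399532 (RPS3, plus), chr20:17968780-17968809 (SNX5, minus), chr2:231464470-231464499 (NCL, minus), chr5:138575387-138575416 (HSPA9, minus) and chr14:21437261-21437290 (CHD8, minus).
RPS12: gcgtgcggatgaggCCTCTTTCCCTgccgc
RPS13: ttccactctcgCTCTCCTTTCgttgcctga
RPS3: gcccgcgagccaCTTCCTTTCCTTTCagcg
SNX5: gcaccgaaacgcggTCTTTCTCTagacgcg
NCL: tcagtctttcgcctcagtctcgagctctcg
HSPA9: tggttggaggtttccagaagcgctgccgcc
CHD8: gcgggcaggagcatcaggttaggttgcgca
SNORD100 from RPS12, SNORD14A from RPS13, SNORD15B from RPS3 and SNORD17 from SNX5 fell, and so did SNORD82 and SNORD20 from NCL, SNORD63 from HSPA9 and SNORD8 from CHD8. The letters describe the windows and show no use of these starts in KPL4.

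The snoRNAs were also set beside the genes around them, since whole stretches of chromosomes differed between the groups. For each placed snoRNA the median difference of the 24 nearest bright coding genes, 12 on each side and without its host, was taken. These medians ran from -0.51 to 0.33. Of the 59 placed snoRNAs, 50 lay below the median of their neighbours and 9 above, and the snoRNA minus that median ran from -1.60 to 0.27 with a median of -0.35. On chromosome 2 the stretch between SESTD1 and MTERF4 was lower as a whole: 100 of its 221 bright coding genes fell, 3 rose, and their median was -0.49. It holds 6 placed snoRNAs (SNORD11, SNORD11B, SNORD51, SNORD70, SNORD20 and SNORD82), of which 4 fell, with a median of -1.16. Without it, 14 of 53 placed snoRNAs fell and the median was -0.31. SNORD70, SNORD82, SNORD20 and SNORD11 thus lie among neighbours that were also lower, and the part of the neighbourhood in their falls was not tested.

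Protein genes of snoRNP assembly and rRNA production were also read out. Of 49 measured genes for core proteins, assembly, processing and rRNA transcription (54 were listed), 6 rose, 4 fell, and the median was 0.01. All were bright, and with 8.9% of bright genes called higher and 5.93% lower, these counts lie near the background. FBL, the methylase, read 14.81, 14.80 and 14.61 in knockout cells and 14.86, 14.96 and 14.93 in control cells (-0.18, adjusted p = 0.50). FBL, NOP58 (-0.10) and SNU13 (0.04) all missed the threshold, and NOP56 had no probe set of its own. Assembly factors moved in both directions. NUFIP1, which bridges the core proteins during assembly, read 7.86, 7.97 and 7.90 in knockout cells and 9.58, 8.93 and 9.44 in control cells. It fell by 1.41 (adjusted p = 0.00038, 2.65-fold lower), and RUVBL1, an ATPase of the same assembly machinery, fell by 0.59 (adjusted p = 0.012). RPAP3, which couples the chaperone HSP90 to that machinery, rose by 0.88 (adjusted p = 0.0034), and HSP90AA1, a gene of HSP90 itself, rose by 0.59 (adjusted p = 0.023).

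PHAX, an export adaptor that also carries U3 within the nucleus, rose by 0.56 (adjusted p = 0.014). Among genes of pre-rRNA processing, MPHOSPH10 and IMP4, partners of U3, rose by 0.56 (adjusted p = 0.025) and 0.64 (adjusted p = 0.0065), while DIS3, a nuclease of the exosome, fell by 0.99 (adjusted p = 0.0031). For rRNA transcription, POLR1D, a polymerase subunit, fell by 0.85 (adjusted p = 0.0012), and RRN3, an initiation factor, rose by 0.56 (adjusted p = 0.040). NUFIP1, DIS3 and POLR1D all lie on chromosome 13, where 115 of 199 bright coding genes fell, 8 rose and the median was -0.72. The part of the chromosome in their falls was not tested. NUFIP1, DIS3, POLR1D, RPAP3 and IMP4 passed the test without any single array. The calls of RRN3, MPHOSPH10, HSP90AA1, PHAX and RUVBL1 did not, with an adjusted p of up to 0.15, 0.10, 0.099, 0.068 and 0.051 in that order.

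Other short RNAs had lower medians too. The H/ACA snoRNAs, which guide the change of uridine to pseudouridine, had a median of -0.13 over 74 genes, with 2 higher and 11 lower, against 4.81% of all genes called higher and 3.21% lower. The 52 bright ones had a median of -0.15, with 2 higher and 10 lower, against 8.9% and 5.93% of bright genes. The small Cajal body RNAs, which guide changes of nucleotides in spliceosomal RNAs, had a median of -0.33 over 21 genes. By limma 0 were higher and 6 lower, and all 9 with an unadjusted p under 0.05 were lower. Their 12 bright members had a median of -0.75 and held all 6 calls. Genes of RefSeq class snRNA, many of them near-identical copies, had a median of -0.33 over 41 bright genes, with 3 higher and 9 lower. The differences between these lists and the C/D box snoRNAs were not tested. The RNA came from a silica column kit that binds short RNA less well than long RNA, and the part of its recovery in these differences was not tested. Over 13 other short RNAs that RefSeq classes as Y, vault, signal recognition particle, RNase P or RNase MRP RNA, 0 rose and 2 fell by limma, and the median was -0.17; 3 had an unadjusted p under 0.05, all lower. RPPH1, of RNase P, fell by 0.61 (adjusted p = 0.010) and RNY1, a Y RNA, by 0.65 (adjusted p = 0.034). RPPH1 lost its call without knockout array 2 (adjusted p = 0.059) and with probe sets averaged (-0.18, adjusted p = 0.59), and RNY1 without any array but control array 2 (up to 0.11). RMRP, of RNase MRP, differed by 0.02 (adjusted p = 0.96) and RN7SL1, of the signal recognition particle, by 0.06 (adjusted p = 0.85), both with a sign that changed between settings.

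**Figure D5:**
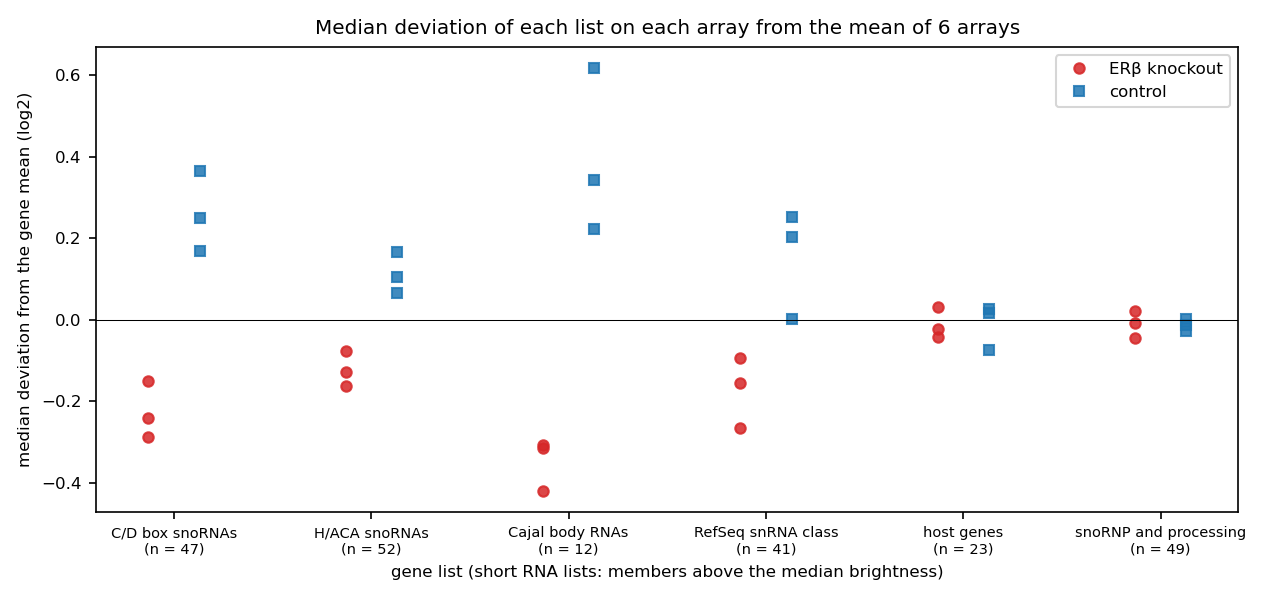
Median over each list of the deviation of a gene's log2 signal on an array from its mean over the 6 arrays (vertical axis), knockout arrays as red circles left of control arrays as blue squares. The bright C/D box snoRNAs lie at -0.29, -0.24 and -0.15 on knockout arrays 1, 2 and 3. On control arrays 1, 2 and 3 they lie at 0.37, 0.17 and 0.25. The H/ACA, Cajal body and snRNA lists also lie below 0 on each knockout array and above 0 on each control array. The groups overlap for the 23 hosts and the 49 protein genes.

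By array, the median deviation of the 47 bright placed snoRNAs from their own 6-array means was below 0 on each knockout array and above 0 on each control array. The bright H/ACA and Cajal body lists were split the same way, with the Cajal body list highest on control array 1, at 0.62. So were the 41 bright genes of RefSeq class snRNA, though their median was only 0.0019 on control array 3. Control array 1 also had the highest C/D box median. Without it 13 of the 83 snoRNAs fell in place of 20, and likewise 13 without knockout array 2. Of the 18 placed calls, 13 remained without control array 1, where SNORD8, SNORD14A, SNORD15B, SNORD69 and SNORD111 missed the threshold, and 12 without knockout array 2, where SNORD8, SNORD14A, SNORD41, SNORD69, SNORD71 and SNORD111 did. The highest adjusted p of these snoRNAs over the 6 fits that leave out an array lay between 0.053 (SNORD15B) and 0.094 (SNORD8), and all differences stayed negative.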

How the data were processed

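RNA of 3 knockout and 3 control samples was isolated on silica columns and its labelled cDNA put on 1-colour Affymetrix arrays, per the labels. The values deposited by the authors are log2 signals. The submitters' processing notes name RMA and Transcriptome Analysis Console, and their versions and the array's build are not given in the sources used here. That the scale is log2 was read off the value range, and 0.567% of values exceed 16, so differences at the top may be stretched. Arrays carry no read depth, and their number limits the precision.

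Names came from the platform annotation: of 134748 probe sets, 35528 had 1 symbol, 1119 several and 98101 none listed. Another 71 C/D box symbols stood only on probe sets with several symbols and were not analysed here. Probe sets were placed by listed gene ID or by neighbouring probe set numbers within 25 RefSeq genes, a rule that placed 56 of 56 listed ones. Hosts were taken from RefSeq gene spans (GRCh38.p14), which carry no strand in the table used, and from a hand-written list. Target classes come from general knowledge.

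Groups were compared with limma 3.58.1 (lmFit, eBayes) in R 4.3.3, two-sided, with Benjamini-Hochberg adjustment over 33578 genes at 0.05 (4 residual and 6.84 prior degrees of freedom). The limma fit was tested on simulated arrays with known differences. Members and lists were chosen with earlier results of these data known. Named genes are the U3, U14 and SNORD13 genes, every member past the threshold, members of hosts with 3 or more, their hosts, core proteins and called protein genes, the 2 bright members with the smallest difference, the 3 brightest, and the 3 largest uncalled differences in each direction. Further snoRNAs of a shared host and RNU6-1, RMRP, RN7SL1, RPPH1 and RNY1 were named after their values were seen. Alternatives were repeated quantile normalization, equal array medians, a trended robust prior, averaging a gene's probe sets, bright genes only, a replicate block, leaving out each array, members without lettered copies, and the hand-written host list alone. Settings with placed members only and without the chromosome 2 stretch were added after seeing the data.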

Additional observations from a re-analysis of the deposited data

How the results depend on the processing

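No C/D box snoRNA was called higher and no host gene called in either direction in any setting run, and all 18 placed calls kept a negative difference. Between 13 and 20 of the 83 snoRNAs were called, all lower, when an array was left out, and their median stayed between -0.30 and -0.24. SNORD8, SNORD14A, SNORD69, SNORD111, SNORD41, SNORD71 and SNORD15B each missed the threshold without at least 1 of the arrays, as did SNORD78 and SNORD81. With a gene's probe sets averaged, 14 were called, without SNORD11, SNORD41, SNORD63 and SNORD111, and the median of snoRNA minus host was -0.34 in place of -0.54; that mean takes in probe sets on other chromosomes. This median lay between -0.64 and -0.49 when an array was left out. The median of the hosts, 0.03, changed sign with repeated quantile normalization (-0.037), with the hand-written hosts (-0.034) and when arrays were left out (-0.035 to 0.0036), the cause not tested. Leaving out an array gave 1668 to 2266 genes called in place of 2691, 1008 to 1378 higher and 660 to 925 lower, and 5 to 8 of the protein genes in place of 10; fewer samples enter each fit. Same-numbered arrays did not deviate together (r = -0.019, -0.010 and -0.030), so the replicate number pairs no samples; the fit with it as a replicate block called 22 of the 83 snoRNAs, including all 18 placed calls and SNORD11B (adjusted p = 0.037), with 8 protein genes, and of all genes called there were 2303. Genes with differences near 0 that turned sign, none of them called, were CHD8 (-0.037 after quantile normalization), SNU13 (-0.044), RN7SL1 (-0.0061) and SNX5 (-0.011). Ranges without an array crossed 0 for CHD8 (-0.018 to 0.14), ESR2 (-0.075 to 0.16), RPS12 (-0.098 to 0.020), SF3B3 (-0.071 to 0.027), SNORD14E (-0.18 to 0.10), SNORD74 (-0.20 to 0.23), SNU13 (-0.10 to 0.16), SNX5 (-0.041 to 0.11), RMRP (-0.070 to 0.11) and TNPO2 (-0.064 to 0.26), the cause not tested. RRN3 lost its call in every fit without an array (adjusted p between 0.056 and 0.15), after quantile normalization (0.071) and with the replicate block (0.071), and MPHOSPH10 with the block (0.052). With only the bright genes tested, 24 of the snoRNAs were called. In dim snoRNAs the signal over background was not known, and a missed threshold there shows no lack of difference.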

Other observations

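Among the 24 probe sets that carry a C/D box symbol but were not placed at its gene, SNORD78 and SNORD81 were called lower. SNORD78 had a difference of -0.59 (adjusted p = 0.015), on another chromosome than its gene. SNORD81 had a difference of -0.58 (adjusted p = 0.037), on the same chromosome at another place. Both are named after snoRNAs of GAS5, whose own probe sets carry several symbols. SNORD46 had the largest difference, -0.65, without passing the test (adjusted p = 0.067), and SNORD77 had the largest positive difference of this set, 0.34 (adjusted p = 0.24). SNORD74 was among the bright ones with the smallest difference, 0.02.

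The imprinted families SNORD113 to SNORD116, which have no known rRNA target, were measured through 63 genes. They were dim, with a median signal of 3.65, and their median difference was -0.02, with 0 called in either direction by limma and 3 at an unadjusted p under 0.05.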
